A study of Mus musculus with 77 samples.

Results

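Sox9, Sox8, Gata1, Gata4, Wt1 and Nr5a1 encode transcription factors by which Sertoli cells, the somatic cells that nurse germ cells inside the testis cords, are recognised. These 6 genes were taken by name from 19938 mouse genes measured on 77 arrays, and each had 1 probe set, so no choice among probe sets was needed. They were described across Cre line, RNA fraction and labelled time. In these RiboTag mice, Cre recombinase switches on an epitope tag on a ribosomal protein, so that only the ribosomes of Cre-making cells and their descendants are tagged. Amh-cre drives the tag in Sertoli cells, and Stra8-cre and Ngn3-cre drive it in germ cells. Immunoprecipitated (IP) RNA is the RNA recovered with tagged ribosomes, and total RNA comes from the whole testis with all its cells. Amh arrays comprised 16 of IP RNA and 14 of total RNA, Stra8 arrays 16 and 23, and Ngn3 arrays 4 and 4. All animals, those at time 0 included, had been given the retinoic acid synthesis inhibitor BDAD for 9 days. Time 0 is the end of that treatment, and the other animals received an injection of retinoic acid (RA) and were taken at 4h, 12h, 24h, 48h, 4d, 6d or 8d, per the labels. Ngn3 arrays cover 0 and 4h, and a 4h group of Amh total RNA was not analysed here. The strain was FVB/N for the Amh and Stra8 lines and C57BL/6 for the Ngn3 line, whose strain and Cre driver cannot be told apart. The labels give no age and no arrays of vehicle-injected animals, so RA, the injection, age and the end of BDAD cannot be told apart over a course. The labels do not say that arrays of a group came from separate animals, so a p-value here reflects only how far these samples spread, which may be technical. That spread is pooled for each gene over all groups, tight and wide alike.

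SOX9 is the factor that turns the bipotential gonad towards the Sertoli fate downstream of SRY, and SOX8 is a close relative with overlapping activity. WT1, GATA4 and NR5A1 (also called SF-1) act in the forming gonad and take part in the control of Amh, the gene of anti-Müllerian hormone, a Sertoli product. Gata4 and Nr5a1 are also expressed in steroid-making Leydig cells, and Wt1 is used in the mouse testis as a mark of Sertoli cells. GATA1 is best known from red cell, platelet and mast cell precursors, and in the mouse testis it is made in Sertoli cells.

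Values below are log2 of the deposited RMA intensity. A gene was called when the Benjamini-Hochberg adjusted p over all 19938 genes in limma was under 0.05 and the difference was at least 2-fold (1 on the log2 scale). Differences are given with the SE of that fit. Arrays of a group correlated across genes at 0.989 or more, except in Stra8 total RNA at 4h (lowest 0.958) and 24h (lowest 0.970). Array medians ranged from 252.6 to 300.5 intensity units. The lowest value of any of the 6 genes was 7.82, against a floor near 4.65, so none lay at the floor. RNA of the RA-responsive gene Rarb did not follow all time labels. It was 8.58 and 8.56 in Amh IP arrays labelled 4d and 8.88 and 8.82 in Amh total arrays labelled 4d, against 9.28 and 9.21 in Stra8 IP arrays labelled 4h and 7.05 and 7.18 in Stra8 IP arrays labelled 4d. In Amh IP arrays labelled 4h it was 7.18 and 7.16, against 7.07 and 7.02 at 0. Among Stra8 total arrays labelled 4h, replicate 1 was at 8.52 and the others at 6.98 and 6.99. For these arrays the time is given as "labelled", and leaving out the Amh arrays labelled 4h and 4d, or the Stra8 total arrays labelled 4h, changed no call of the 6 genes in the comparisons that remained.

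Cell markers followed the tags. Their lists were chosen with earlier results of these data known, so this is a description and not an independent check. The mean of 15 Sertoli markers lay between 12.16 and 12.43 in Amh IP arrays, between 9.01 and 11.13 in Stra8 IP arrays and between 9.95 and 10.21 in Ngn3 IP arrays. The mean of 12 germ cell markers lay between 8.02 and 9.01 in Amh IP arrays, against 11.25 to 11.79 in Stra8 IP arrays and 11.68 to 11.89 in Ngn3 IP arrays. In bulk samples of this kind, fewer cells of a type and less RNA per cell cannot be told apart.

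All 6 genes had the same order of levels: highest in Amh IP RNA, lower in total RNA and lowest in both germ cell IP fractions. Sox9 was at 12.97, 13.06 and 13.32 in Amh IP arrays (lowest, median and highest of 16) and at 11.64, 12.38 and 12.66 in Amh total arrays. In Stra8 IP arrays it was at 9.25, 10.62 and 11.67, against 11.86, 12.44 and 12.81 in Stra8 total arrays. In Ngn3 IP arrays it was at 10.40, 10.81 and 10.98, against 12.40, 12.56 and 12.72 in Ngn3 total arrays. Every Amh IP array was above every other array, with a gap of 0.16 to the highest total array, and the Stra8 IP arrays had the widest spread.

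Sox8 was at 11.68, 12.10 and 12.26 in Amh IP arrays and at 10.71, 11.19 and 11.39 in Amh total arrays. In Stra8 IP arrays it was at 9.15, 9.60 and 10.40, against 10.50, 11.28 and 11.46 in Stra8 total arrays. In Ngn3 IP arrays it lay between 9.45 and 9.69, against 10.89 to 11.37 in Ngn3 total arrays. As for Sox9, no other array reached the Amh IP arrays, by a gap of 0.22.

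Gata1 had the widest range within Amh IP RNA, 10.78, 11.63 and 12.31, and stood at 9.73, 10.11 and 11.07 in Amh total arrays. In Stra8 IP arrays it was at 7.82, 8.36 and 9.24, against 9.71, 10.25 and 11.34 in Stra8 total arrays. In Ngn3 IP arrays it lay between 7.87 and 8.54, against 9.87 to 10.74 in Ngn3 total arrays. Its Amh IP and total arrays overlapped over all times, with a gap of -0.55 between the lowest Amh IP and the highest total array, but the lowest Amh IP array was 1.54 above the highest germ cell IP array. That gap was 1.29 for Sox9 and for Sox8, 1.17 for Gata4, 0.85 for Wt1 and 0.79 for Nr5a1.

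Gata4 was at 12.21, 12.56 and 12.77 in Amh IP arrays and at 11.01, 11.75 and 11.98 in Amh total arrays. In Stra8 IP arrays it was at 8.96, 10.11 and 11.03, against 10.99, 11.79 and 12.11 in Stra8 total arrays. Wt1 had the narrowest range of the 6 within Amh IP and within Amh total arrays, with 12.39, 12.63 and 12.74 in Amh IP arrays and 11.76, 11.96 and 12.16 in Amh total arrays. In Stra8 IP arrays Wt1 was at 9.86, 10.45 and 11.55, against 11.70, 11.95 and 12.26 in Stra8 total arrays. Nr5a1 was at 10.58, 11.13 and 11.26 in Amh IP arrays and at 9.97, 10.28 and 10.40 in Amh total arrays. Its Stra8 IP arrays were at 8.25, 8.68 and 9.79, against 9.75, 10.43 and 10.63 in Stra8 total arrays. In Ngn3 IP arrays Gata4, Wt1 and Nr5a1 lay between 10.30 and 10.53, 10.64 and 11.01, and 8.48 and 8.72, each below all Ngn3 total arrays.

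**Figure D1:**
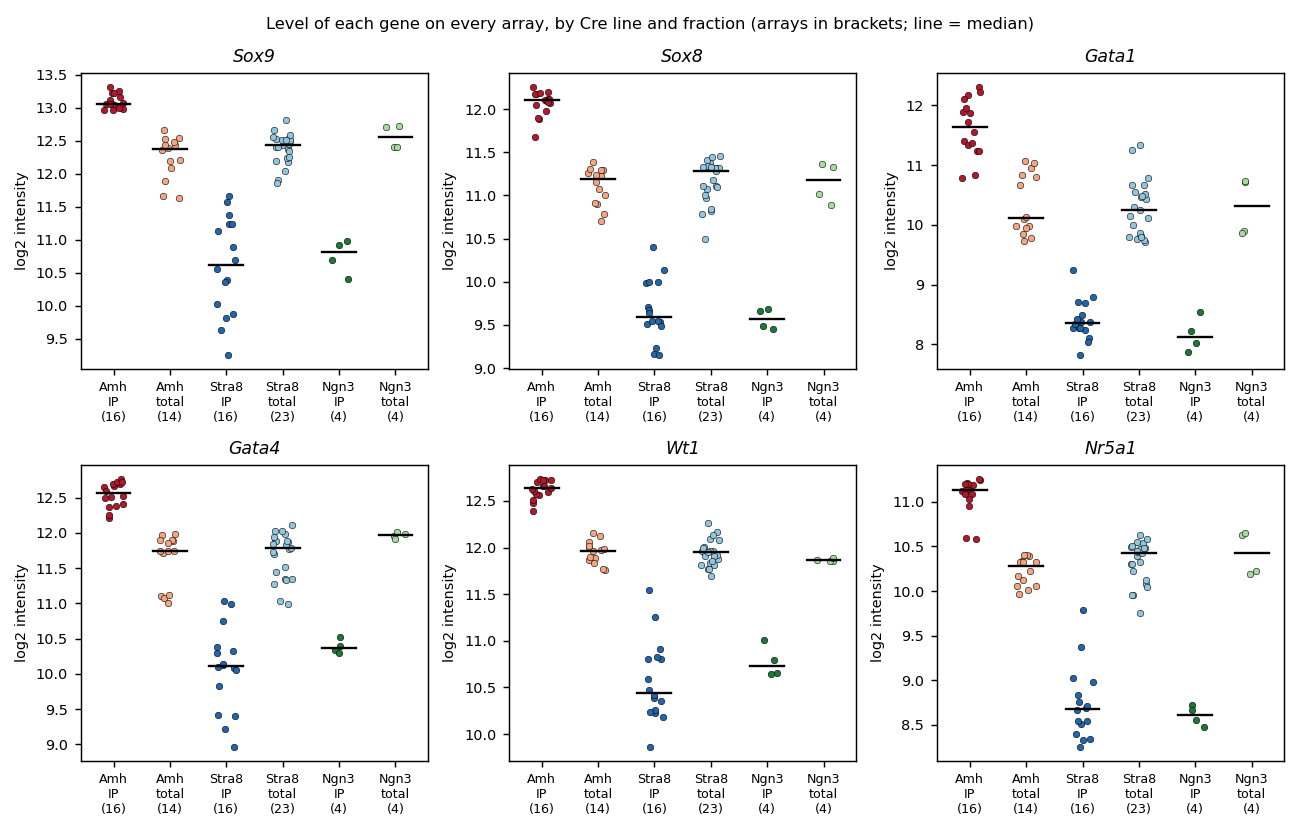
Log2 intensity (vertical axis) of each gene on every array, with arrays grouped by Cre line and fraction and a line at the median. For Sox9, Sox8, Gata4 and Wt1 all 16 Amh IP points lie above all 61 others, while the Gata1 points of Amh IP run from 10.78 to 12.31.

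Counted over arrays, all 16 Amh IP arrays were above all 20 germ cell IP arrays for 6 of 6 genes, which held for 9.77% of all genes. They were above all 61 other arrays for 4 of 6 (Sox9, Sox8, Gata4 and Wt1), against 2.53% of all genes. The exceptions were Gata1 and Nr5a1, with gaps of -0.55 and -0.07. The lowest Nr5a1 values of Amh IP RNA were those of the Amh IP arrays labelled 4d, 10.59 and 10.58.

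Against total RNA of the same line, Amh IP RNA held more of all 6 genes, but 1 passed the 2-fold minimum. Gata1 was 1.25 ± 0.07 higher in Amh IP than in Amh total RNA (2.38-fold, adjusted p = 1.17e-22, 14 arrays each over the 7 times with both). The others differed by 0.95 ± 0.06 for Sox8 (adjusted p = 2.07e-20), 0.93 ± 0.07 for Gata4, 0.85 ± 0.08 for Sox9, 0.84 ± 0.06 for Nr5a1 and 0.67 ± 0.06 for Wt1, the largest adjusted p being 4.31e-14 (limma). The count of 1 in 6, called higher, compares with 5.04% of all genes called and 1.1% called higher. The median of the 6 was 0.89 against 0.12 for all genes. By the adjusted p alone 6 of 6 were higher, against 51% of all genes. Centring each array on its median raised the median of all genes to 0.25, and under it Sox8 (1.08) and Gata4 (1.05) also passed, for 3 of 6. At single times the Amh IP minus total difference ran from 0.99 to 1.46 for Gata1, from 0.63 to 1.35 for Sox9 and from 0.48 to 0.80 for Wt1, so none was negative at any time.

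In the germ cell lines the 6 genes went the other way. Stra8 IP RNA was lower than Stra8 total RNA for 6 of 6 (9.21% of all genes were called, 5.37% as lower), by -1.98 ± 0.06 for Gata1, -1.73 ± 0.07 for Sox9, -1.56 ± 0.05 for Nr5a1, -1.53 ± 0.06 for Gata4, -1.46 ± 0.05 for Sox8 and -1.35 ± 0.05 for Wt1. Gata1 was thus 3.95-fold and Wt1 2.55-fold lower, with limma adjusted p of 3.14e-33 and 9.45e-30. Ngn3 IP RNA was lower than Ngn3 total RNA for 6 of 6 as well (12.9% of all genes called, 6.75% as lower), from -2.14 ± 0.12 for Gata1 to -1.09 ± 0.10 for Wt1 (limma adjusted p = 4.07e-13 for Wt1). In both germ cell lines Gata1 had the largest difference of the 6 and Wt1 the smallest. Of 7 Leydig cell markers measured, 6 were called lower in Stra8 IP than in Stra8 total RNA (median -1.88). In Amh IP against Amh total RNA the list was split: 3 were called lower, against 3.94% of all genes, and 0 higher (median -0.21, against 0.12 for all genes). Cyp11a1, the first enzyme of steroid synthesis, Cyp17a1 and Hsd3b1 were at -2.49 ± 0.15, -2.46 ± 0.17 and -2.41 ± 0.08 there. Hsd17b3 (0.89 ± 0.15) and Scarb1 (0.54 ± 0.04) differed the other way, under 2-fold, and Star (0.12 ± 0.12) and Fdx1 (-0.21 ± 0.08) were closer to 0. Their part in the values of Gata4 and Nr5a1 in total RNA was not tested.

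**Figure D2:**
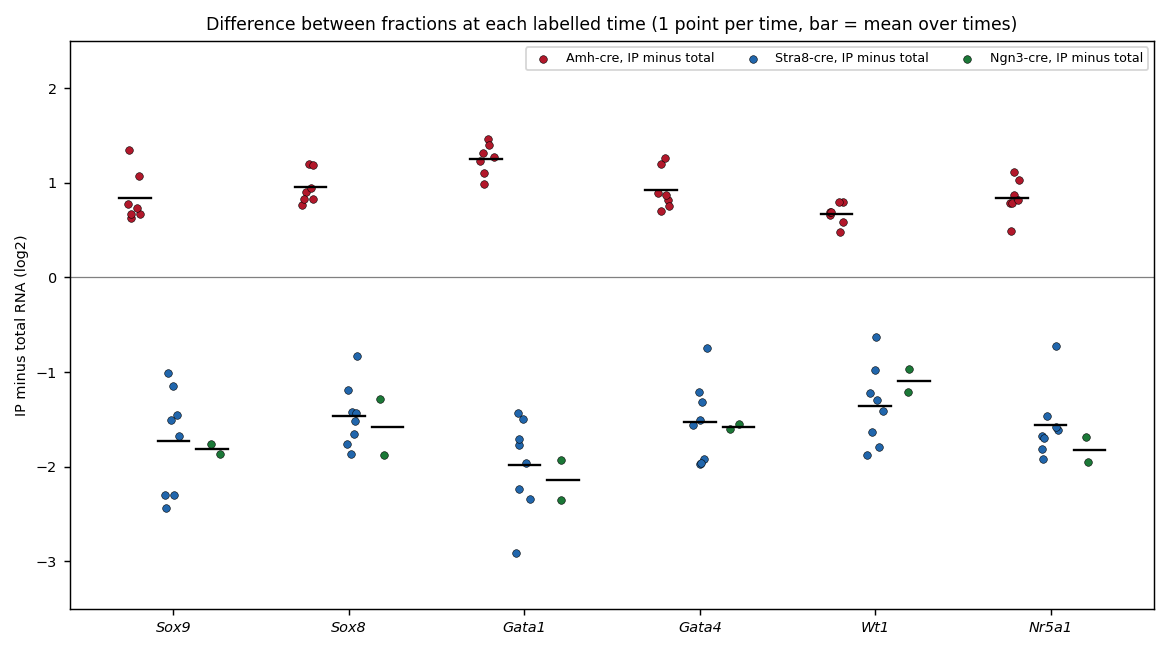
Difference between IP and total RNA (log2, vertical axis) for each gene at every labelled time with both fractions, coloured by Cre line, with a bar at the mean. Every Amh point is above 0 and every Stra8 and Ngn3 point below it; Gata1 spans 0.99 to 1.46 in the Amh line and -2.91 to -1.43 in the Stra8 line.

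Set against each other directly, the Sertoli cell tag held more than the germ cell tag. Amh IP was higher than Stra8 IP for 6 of 6 genes, against 16.8% of all genes called and 9.26% called higher. The difference was 3.22 ± 0.06 for Gata1 (9.29-fold, limma adjusted p = 1.07e-41), 2.49 ± 0.07 for Sox9, 2.47 ± 0.06 for Gata4, 2.40 ± 0.05 for Sox8, 2.34 ± 0.06 for Nr5a1 and 2.05 ± 0.05 for Wt1 (4.13-fold). Between whole testes the lines were close. Amh total minus Stra8 total RNA ranged from -0.11 ± 0.06 for Nr5a1 to 0.02 ± 0.06 for Gata4 and 0 of 6 were called, against 0.0301% of all genes. By the adjusted p alone the count was also 0 of 6, against 18% of all genes. Ngn3 IP minus Stra8 IP gave 0 of 6 (0.191% of all genes), with the largest difference at -0.35 ± 0.12 for Gata1 (adjusted p = 0.05, limma).

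Over the course after RA, Gata1 was the only one of the 6 called in Amh IP RNA. It stood at 10.78 and 10.83 at 0, at 11.89 and 11.72 in arrays labelled 4h, at 11.40 and 11.23 at 12h and at 11.33 and 11.24 at 24h. It stood at 11.36 and 11.55 at 48h, at 11.87 and 11.95 in arrays labelled 4d, at 12.17 and 12.31 at 6d and at 12.11 and 12.22 at 8d. Both arrays of every later time were above both arrays of 0, and the arrays of 4d, 6d and 8d were above those of 12h, 24h and 48h. In the order of means, neighbouring times overlapped for 24h with 12h, for 12h with 48h, for 4h with 4d and for 8d with 6d. Against 0, Gata1 rose by 1.10 ± 0.17 in arrays labelled 4d (adjusted p = 9.96e-06), by 1.43 ± 0.17 at 6d (2.70-fold, adjusted p = 7.08e-09) and by 1.36 ± 0.17 at 8d (2.56-fold, adjusted p = 1.13e-08), in limma with 2 arrays a group. The shares of all genes called were 0.943% for 4d, 3.41% for 6d and 5.63% for 8d.

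At 12h, 24h and 48h, and in arrays labelled 4h, Gata1 was under the 2-fold minimum. Which of the values labelled 4h (0.99) and 4d (1.10) is the earlier rests on labels that Rarb did not follow. Gata1 differed from 0 by 0.99 ± 0.17 in arrays labelled 4h (limma adjusted p = 2.94e-05; 1.94% of all genes called), which passed 2-fold when replicate 2 of either 0 or 4h was left out, at 1.02 and 1.08. The difference was 0.50 ± 0.17 at 12h (adjusted p = 0.047; 1.55% called), 0.48 ± 0.17 at 24h (adjusted p = 0.21; 0.537% called) and 0.64 ± 0.17 at 48h (adjusted p = 0.0107; 1.22% called). The 8d minus 6d difference was -0.07 ± 0.17 (adjusted p = 0.789; 0 of 6 genes and 1.38% of all genes called). The test over the whole course gave 1.43 as the largest difference (limma F test, adjusted p = 1.75e-09; 7.62% of all genes called).

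The other 5 genes were not called at any time in Amh IP RNA. Sox9 differed from 0 by at most 0.26, at 12h, and by 0.00 ± 0.20 at 8d, where its arrays were at 13.05 and 12.97 against 13.04 and 12.98 at 0. Sox8 lay between -0.31, in arrays labelled 4d, and 0.13, at 48h. Gata4 was at 12.38 and 12.21 at 6d and at 12.26 and 12.37 at 8d, against 12.66 and 12.69 at 0. These 4 Gata4 arrays were all below those of 0, by 0.38 ± 0.17 and 0.36 ± 0.17 (differences of -0.38 and -0.36; limma adjusted p = 0.101 and 0.128). Wt1 stayed within -0.09 and 0.19 of its value at 0. Nr5a1 was low only in arrays labelled 4d, where the difference of -0.57 ± 0.17 had a limma adjusted p of 0.0192 and was under the 2-fold minimum. For 6d against 0 the median of the 6 genes was -0.04, against 0.07 for all genes.

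**Figure D3:**
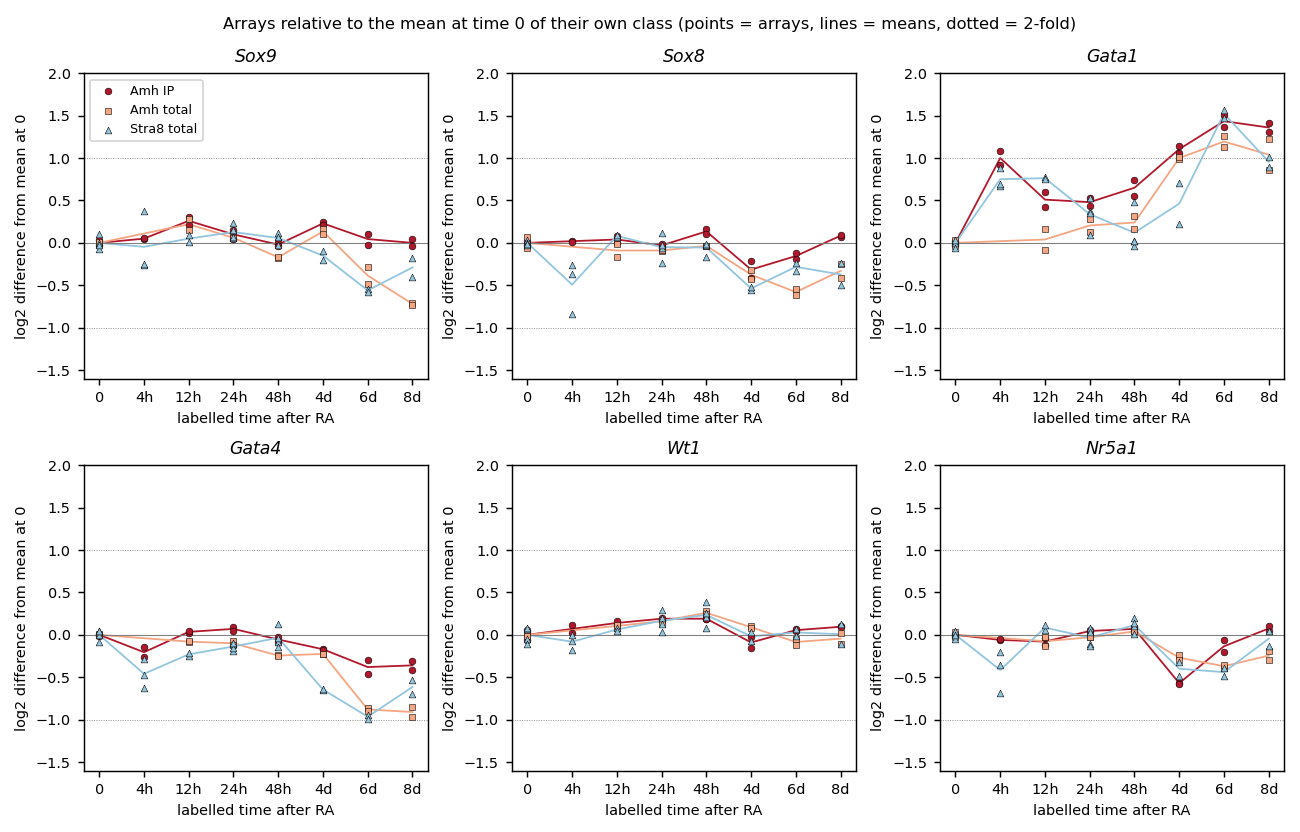
Log2 difference of each array from the mean at time 0 of its own class (vertical axis) against labelled time (horizontal axis, equal steps), for Amh IP, Amh total and Stra8 total RNA, with lines through the means and dotted lines at 2-fold. Gata1 lies above 0 in nearly every later array and near or above 1 at 6d and 8d in each class, while Gata4 and Sox9 lie below 0 at 6d and 8d in total RNA.

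Gata1 is also used by blood lineages, whose markers are given as a check. The mean of the 7 erythroid markers measured was between 7.43 and 7.88 in Amh IP arrays. Over the Amh IP course 0 of these 7 and 1 of 6 mast cell markers were called, counts too small to set apart from the 7.62% of all genes called. Klf1, an erythroid transcription factor, was between 7.22 and 7.66 and Alas2, an enzyme of haem synthesis in red cell precursors, between 7.33 and 7.85. The mast cell marker called was Hdc, the enzyme that makes histamine, at 1.32 ± 0.25 for 8d against 0 (limma adjusted p = 3.83e-05). Cpa3, a mast cell protease, was between 5.97 and 6.56 in Amh IP arrays, against 6.28 to 8.89 in Amh total arrays. The globin genes Hbb-bs, Hbb-bt, Hbb-b1 and Hba-a1 were not analysed here.

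The promoters of Gata1 and Sox8, the 2 members for which a promoter was matched, are shown with short promoter motifs in capitals. In GRCm38.p6 coordinates, Gata1 (chromosome X, 7959260 to 7976663, minus strand) has its RefSeq start at 7967910, so that the printed window chrX:7967861-7968160 lies inside the annotated gene, 8753 bases from its outer end. The probe set gives 1 value for the gene, and the use of first exons was not measured here. In mice, as background, Sertoli cells are known to start Gata1 from a separate first exon that lies upstream of the one used by red cell precursors. Sox8 (chromosome 17, 25565893 to 25570686, minus strand) is shown at chr17:25570637-25570936. Both windows run from 250 bases before to 50 bases after the start, from RefSeq.
Gata1: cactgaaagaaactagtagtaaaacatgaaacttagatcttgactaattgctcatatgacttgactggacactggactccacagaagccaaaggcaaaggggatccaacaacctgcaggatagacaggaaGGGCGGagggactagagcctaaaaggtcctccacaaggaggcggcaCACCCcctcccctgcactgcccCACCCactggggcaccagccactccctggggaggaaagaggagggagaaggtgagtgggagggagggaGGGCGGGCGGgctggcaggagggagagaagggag
Sox8: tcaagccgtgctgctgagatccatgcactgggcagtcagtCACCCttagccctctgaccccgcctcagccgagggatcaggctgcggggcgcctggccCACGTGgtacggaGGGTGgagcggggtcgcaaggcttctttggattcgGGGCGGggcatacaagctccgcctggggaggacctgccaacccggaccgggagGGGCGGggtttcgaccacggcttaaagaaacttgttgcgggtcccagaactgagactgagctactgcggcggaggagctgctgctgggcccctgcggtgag
Motifs were searched on both strands as letters. Gata1 held 3 matches to the GC box GGGCGG, of which the last 2 overlap, and 2 to CACCC. Sox8 held 2 matches to GGGCGG, 2 to CACCC (1 of them on the other strand, printed as GGGTG) and 1 to the E-box CACGTG. Of 32851 RefSeq promoters of the same length, 35.7% held GGGCGG, 57.5% CACCC and 7.2% CACGTG. Neither window held letters bound by GATA factors, searched as AGATAA, then as AGATAG, then as TGATAA and then as TGATAG (29.8% of promoters), by SOX factors, searched as AACAAT and then as AACAAAG (15.7%), by NR5A1, searched as AAGGTCA (4.7%), or the TATA box TATAAA (13.6%). The remaining members are Sox9 on chromosome 11 (112782210 to 112787757), Gata4 on chromosome 14 (63198914 to 63271712), Wt1 on chromosome 2 (105126529 to 105173614) and Nr5a1 on chromosome 2 (38692656 to 38714542).

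In whole testis RNA the genes parted in direction. Gata1 in Stra8 total arrays was at 11.34 and 11.25 at 6d and at 10.79 and 10.67 at 8d, against 9.80, 9.77, 9.71 and 9.81 at 0. In Amh total arrays it was at 10.95 and 11.07 at 6d and at 10.67 and 11.04 at 8d, against 9.78 and 9.85 at 0. Every array of 6d and 8d was above every array of 0 in both lines. Averaged over the lines, Gata1 rose by 1.36 ± 0.11 at 6d (2.56-fold, limma adjusted p = 1.07e-13). At 8d it differed by 1.00 ± 0.11, which was 1.99-fold and just under the minimum (limma adjusted p = 3.23e-10). Of the 6 genes 1 was called at 6d and 0 at 8d, against 2.93% and 4.88% of all genes.

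Gata4 and Sox9 were lower in the same arrays, by less than 2-fold. Gata4 in Amh total arrays was at 11.11 and 11.08 at 6d and at 11.01 and 11.12 at 8d, against 11.97 and 11.98 at 0. In Stra8 total arrays it was at 11.04 and 10.99 at 6d and at 11.28 and 11.45 at 8d, against 11.98, 11.89, 12.03 and 12.02 at 0. The groups did not overlap, and the differences over both lines were -0.92 ± 0.11 at 6d (limma adjusted p = 4.89e-09) and -0.76 ± 0.11 at 8d (adjusted p = 2.07e-07). Sox9 differed by -0.47 ± 0.13 at 6d and -0.51 ± 0.13 at 8d (limma adjusted p = 0.00346 and 0.00145). The lines were unlike in size at 8d. The mean of Sox9 was 11.65 against 12.38 at 0 in Amh total RNA, and 12.15 against 12.44 in Stra8 total RNA. Sox8 differed by -0.43 ± 0.10 and -0.35 ± 0.10, and Nr5a1 by -0.40 ± 0.11 and -0.14 ± 0.11. Wt1 was level, at -0.03 ± 0.10 and -0.02 ± 0.10 (adjusted p = 0.846 and 0.904, limma). The mean of the 15 Sertoli markers in total RNA was also lower at these times, at 11.59 at 6d and 11.64 at 8d in the Amh line, against 11.96 at 0, and at 11.74 and 11.75 in the Stra8 line, against 12.08 at 0. Its part in these values was not tested.

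At 12h, 24h and 48h, 0 of the 6 genes were called in whole testis RNA (0.557%, 0.186% and 0.296% of all genes). The largest difference was that of Gata1 at 12h, 0.40 ± 0.11 (limma adjusted p = 0.00988), a mean over lines that were unlike. In Stra8 total arrays of 12h Gata1 was at 10.55 and 10.52, against 9.71 to 9.81 at 0. In Amh total arrays of 12h it was at 9.98 and 9.73, against 9.78 and 9.85 at 0. Over each line's course Gata1 was the 1 gene of 6 called, with a largest difference of 1.19 in Amh total RNA (limma F test, adjusted p = 1.82e-09; 7.66% of all genes called) and of 1.52 in Stra8 total RNA (adjusted p = 3.60e-11; 6.90% called).

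Gata1 was higher and Sox8 and Nr5a1 were lower than at 0 in several groups with high Rarb, but not in all of them. Gata1 was also higher in groups without high Rarb. In Amh IP arrays labelled 4h Rarb was at 7.18 and 7.16 and Gata1 0.99 ± 0.17 from 0. At 6d in Amh IP RNA Rarb was at 7.10 and 7.09 and Gata1 1.43 ± 0.17 from 0. In Ngn3 total RNA at 4h Gata1 was at 10.72 and 10.74, against 9.90 and 9.87 at 0, and the difference of 0.85 ± 0.17 (limma adjusted p = 0.00313) was under 2-fold. Sox8 was at 11.02 and 10.89 there, against 11.33 and 11.37 at 0, and Nr5a1 at 10.22 and 10.19, against 10.63 and 10.65. The groups did not overlap for either, yet the differences of -0.40 ± 0.15 and -0.43 ± 0.17 did not pass the adjusted p (0.331 and 0.343, limma; 0 of 6 genes and 0.301% of all genes called). In Stra8 total arrays labelled 4h, Gata1 was at 10.44, 10.66 and 10.47 (0.75 ± 0.13, limma adjusted p = 8.06e-05), Sox8 at 10.50, 10.97 and 11.08 (-0.49 ± 0.12, adjusted p = 0.00193) and Nr5a1 at 9.75, 10.08 and 10.23 (-0.42 ± 0.13, adjusted p = 0.0168). Replicate 1, the array with high Rarb, was the lowest of the 3 for Sox8 and Nr5a1, but also for Gata1 and Wt1. It was the highest for Sox9, at 12.81 against 12.18 and 12.19. That array also had a narrower signal range, with an interquartile range of 2.65 (log2) against 3.20 and 3.16. Whether these values go with either trait was not tested. In Ngn3 IP arrays at 4h, where Rarb was at 9.04 and 9.05, Sox8 was higher than at 0, by 0.20 ± 0.15, with Gata1 at 0.43 ± 0.17 and Nr5a1 at -0.18 ± 0.17 (limma adjusted p = 0.802, 0.323 and 0.855). In Amh IP arrays at 12h, where Rarb was at 8.12 and 7.70, Sox8 was at 0.04 ± 0.15 and Nr5a1 at -0.07 ± 0.17 from 0 (adjusted p = 0.927 and 0.871, limma). In Amh total arrays at 12h, where Rarb was at 8.33 and 7.90, Gata1 was at 9.98 and 9.73 and so close to its values at 0. Amh IP arrays labelled 4d had Sox8 at 11.68 and 11.88, against 12.07 and 12.12 at 0. Nr5a1 there was at 10.59 and 10.58, against 11.14 and 11.17, and Gata1 at 11.87 and 11.95, against 10.78 and 10.83. In Amh total arrays labelled 4d, Gata1 was at 10.80 and 10.83, against 9.78 and 9.85 at 0. Sox8 was at 10.90 and 11.00 there, against 11.26 and 11.39, and Nr5a1 at 10.12 and 10.06, against 10.33 and 10.39. In Stra8 IP arrays at 4h Rarb was at 9.28 and 9.21. Gata1 there was 0.48 ± 0.17, Sox8 -0.27 ± 0.15 and Nr5a1 -0.38 ± 0.17 from 0 (limma adjusted p = 0.191, 0.485 and 0.322). In Stra8 total arrays labelled 4d, where Rarb was not high (6.97 and 7.29), Sox8 was -0.54 ± 0.13, Gata4 -0.64 ± 0.15 and Nr5a1 -0.40 ± 0.14 from 0 (limma adjusted p = 0.00261, 0.00182 and 0.0457). In Stra8 total RNA 0 of 6 were called at 4h and 0 of 6 at 4d (0.386% and 0.988% of all genes).

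Between the 2 arrays of a germ cell IP group the 6 genes differed in 1 direction at some times and not at others. In Stra8 IP RNA at 24h, replicate 2 was above replicate 1 for 6 of 6 genes, by 0.46 to 1.02, and at 4d replicate 1 was above replicate 2 for 6 of 6, by 0.63 to 0.95. Replicate 2 was also above replicate 1 for 6 of 6 at 0, by 0.01 to 0.75, and at 6d, by 0.07 to 0.38. Directions were mixed elsewhere: replicate 2 was the higher for 3 of 6 genes at 4h and at 48h, 1 of 6 at 12h and 2 of 6 at 8d in Stra8 IP RNA, and for 2 of 6 at 0 and at 4h in Ngn3 IP RNA. The mean of the 15 Sertoli markers was 10.54 against 9.64 for the same arrays of 24h and 11.13 against 10.24 for those of 4d, so it differed between them in the same direction. At 6d it was 9.01 and 9.27 and at 8d 9.37 and 9.51, against 10.02 and 10.65 at 0. Its part in the values below was not tested.

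By the adjusted p alone, 5 of the 6 genes were lower in Stra8 IP RNA at 6d than at 0, against 14.9% of all genes. Sox9 and Gata4 fell most and were the only ones called at the late times. Sox9 was at 9.25 and 9.63 at 6d and at 9.88 and 9.81 at 8d, against 10.39 and 11.14 at 0. Gata4 was at 8.96 and 9.22 at 6d and at 9.41 and 9.40 at 8d, against 10.08 and 10.75 at 0. No array of 6d or 8d reached those of 0 for either gene, but the pair of arrays at 0 differed by 0.75 and 0.67. The SE and p-values below pool a gene's spread over all 35 groups and can understate that of Stra8 IP arrays. For Sox9 the SD was 0.53 at 0 and 0.27 at 6d in Stra8 IP, against 0.04 and 0.09 in Amh IP RNA. At 6d the difference was -1.33 ± 0.20 for Sox9 and -1.32 ± 0.17 for Gata4 (limma adjusted p = 4.97e-07 and 1.95e-08; 2 of 6 genes and 5.98% of all genes called). At 8d it was -0.92 ± 0.20 for Sox9, under 2-fold, and -1.01 ± 0.17 for Gata4 (limma adjusted p = 0.000212 and 4.44e-06; 1 of 6 genes and 7.39% called). Without replicate 2 of 0, the array with the higher marker mean, Sox9 at 6d was -0.95, Gata4 at 6d -0.99 and Gata4 at 8d -0.67, and 0 of 6 were called at either time. At 6d Sox8, Wt1 and Nr5a1 also differed from 0, under 2-fold, by -0.74 ± 0.15, -0.57 ± 0.15 and -0.53 ± 0.17 (limma adjusted p = 9.47e-05, 0.00172 and 0.00946). Gata1, in contrast, was at 8.27 and 8.50 at 6d, against 8.27 and 8.28 at 0 (0.11 ± 0.17, limma adjusted p = 0.674). At 4h, 12h, 24h, 48h and 4d 0 of 6 were called in Stra8 IP RNA, against 0.241%, 0.476%, 0.441%, 0.888% and 1.95% of all genes, and 0 of 6 at 4h in Ngn3 IP RNA, against 0.311%. At 4d in Stra8 IP RNA Wt1 (0.64 ± 0.15), Gata1 (0.53 ± 0.17) and Nr5a1 (0.49 ± 0.17) passed the adjusted p alone (0.00071, 0.0197 and 0.0238, limma), 3 of 6 against 22.3% of all genes. These values hang on single arrays. With 1 array left out they ran from 0.33 to 0.96 for Wt1, 0.09 to 0.97 for Gata1 and 0.02 to 0.97 for Nr5a1. Replicate 1 of 4d had a Sertoli marker mean of 11.13, the highest of the Stra8 IP arrays.

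**Figure D4:**
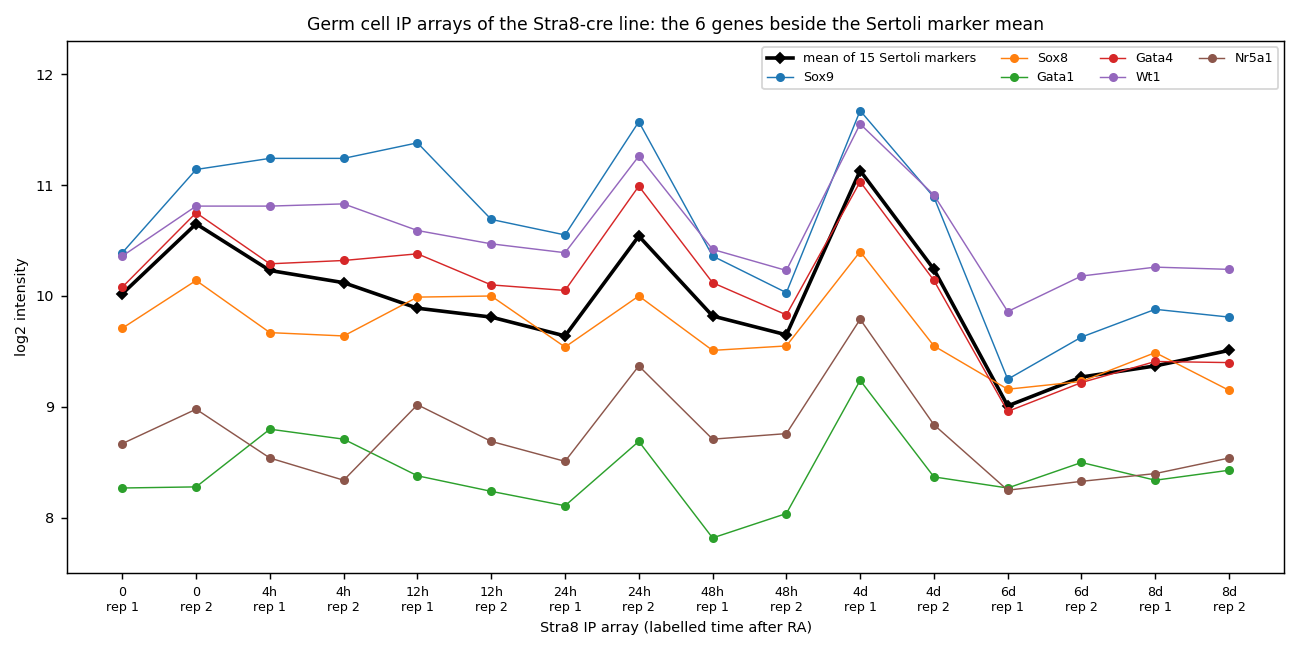
Log2 intensity (vertical axis) of the 6 genes and the mean of 15 Sertoli markers (black diamonds) in each of the 16 Stra8 IP arrays, ordered by labelled time and replicate; lines join arrays only to guide the eye. The marker mean peaks at 11.13 in 4d replicate 1 and is lowest, 9.01, in 6d replicate 1, where Sox9 and Gata4 are also at their highest and lowest.

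The late-minus-early difference, the mean of 6d and 8d minus that of 0, 12h, 24h and 48h, was compared between fractions and tags. For Sox9 it was -0.06 in Amh IP and -0.58 in Amh total RNA, a difference of 0.52 ± 0.17 (limma adjusted p = 0.0272), and for Gata4 -0.38 and -0.79, a difference of 0.41 ± 0.15 (adjusted p = 0.0488). Neither reached 2-fold, and 0 of 6 were called (0.978% of all genes). For Gata1 it was 0.99 in both fractions of the Amh line, with a difference of -0.01 ± 0.15 (adjusted p = 0.989, limma). In the Stra8 line that of Gata1 was 0.16 in IP and 0.93 in total RNA, a difference of -0.78 ± 0.15 that was also under 2-fold (limma adjusted p = 6.16e-05; 0 of 6 genes and 0.848% of all genes called). Between the tags, that of Sox9 was -0.06 in Amh IP and -1.12 in Stra8 IP, and the gap of 1.06 ± 0.17 was called (limma adjusted p = 1.80e-06; 1 of 6 genes and 5.05% of all genes). It was under 2-fold, at 0.93 to 0.97, without each of 4 arrays in turn: Stra8 IP 0 replicate 2, 12h replicate 1, 24h replicate 2 and 6d replicate 1. The remaining 5 genes differed the same way by 0.37 to 0.83, each under 2-fold. For Sox9 the SE of 0.17 again pools groups of unlike spread, mostly wider in Stra8 IP than in Amh IP RNA.

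Other genes of Sertoli cell regulation did not share one pattern. Of 18 measured Sertoli transcription factors beside the 6, 0 were higher and 2 lower in Amh IP than in Amh total RNA (median 0.15, against 0.12 for all genes), where 1.1% of all genes were called higher and 3.94% lower. The lower ones were Tcf21 (-2.48 ± 0.07) and Nr2f2 (-2.01 ± 0.09), both also known from interstitial cells. In Amh IP against Stra8 IP, 5 were higher and 3 lower (median -0.14, against 0.02), with 9.26% and 7.54% of all genes called. Nr0b1, a partner of NR5A1 also called DAX1, was 3.02 ± 0.11 higher, the GATA relative Gata6 2.68 ± 0.07 and the homeobox gene Rhox8 2.66 ± 0.07 (limma adjusted p of at most 4.81e-30), while the Polycomb gene Cbx2 was lower at -1.84 ± 0.05. Over the Amh IP course 0 were higher and 3 lower (7.62% of all genes called), among them Zfpm2, which encodes the GATA4 cofactor FOG2, with a largest difference of -1.72 at 6d.

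Sertoli products and known targets of these factors followed the tag, in a list also chosen with earlier results of these data known. Of 24 such genes, 14 of which are also among the 15 Sertoli markers, 18 were higher and 0 lower in Amh IP than in Stra8 IP (median 2.25), against 9.26% and 7.54% of all genes. The cystatin gene Cst9 (3.84 ± 0.09), Amh (3.55 ± 0.11), Cst12 (3.53 ± 0.08) and Fshr, the receptor of follicle-stimulating hormone (2.87 ± 0.07), had the largest differences. In Amh IP against Amh total RNA 4 were higher and 1 lower (median 0.46), against 1.1% and 3.94% of all genes. Amh was 1.39 ± 0.12 higher there and Cyp26b1, an enzyme that breaks down RA, lower at -1.45 ± 0.07. At 8d against 0 in Amh IP RNA, where 5.63% of all genes were called, 1 was higher and 2 were lower: Trf, the iron carrier transferrin, by 2.26 ± 0.26, Amh by -1.16 ± 0.31 and Gdnf, a growth factor for spermatogonial stem cells, by -1.09 ± 0.22 (limma adjusted p = 8.14e-10, 0.00271 and 7.74e-05).

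Of 12 relatives of the 6 measured in the SOX, GATA and NR5A families, 0 were called in Amh IP against Amh total RNA (median -0.11), where 5.04% of all genes were. In Amh IP against Stra8 IP 2 were higher and 4 lower, against 9.26% and 7.54% of all genes. Sox6 (1.56 ± 0.04) and Sox18, known from endothelial cells (1.47 ± 0.07), were higher. Sox3, which is active in spermatogonia, was lower at -1.36 ± 0.05, as was Gata2 at -1.35 ± 0.05. Of 7 genes of the ovarian side of gonad determination 0 were called in either comparison (medians -0.01 and -0.19). Over the Amh IP course 1 of these 7 was, against 7.62% of all genes: Fst, an activin-binding protein, with 1.13 at 8d.

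The genes with the most similar levels over the 35 group means, by Pearson correlation, are given as a description, since these means share the differences between lines and fractions. Sox9 was closest to Lrrc8b (0.987), Gata6 (0.984), Gata4 (0.978), Tshz1 (0.978) and Abat (0.976). Sox8 was closest to Scrn1 (0.988), Nr5a1 (0.987), Calhm2 (0.985), Gpr37 (0.985) and Slc27a1 (0.983). Gata4 was closest to Gata6 (0.988), Plxnc1 (0.986), Tshz1 (0.985), Mamld1 (0.985) and St6gal1 (0.984). Each of these sets holds another of the 6 or the GATA4 relative Gata6. Wt1 was closest to Gpr37 (0.990), Dtx1 (0.989), Sorbs3 (0.986), Sema6c (0.984) and Lsr (0.983), and Nr5a1 to Rnf144a (0.988), Tnfrsf1a (0.987), Sox8 (0.987), Scrn1 (0.986) and Rgs2 (0.985). Gata1 was closest to Leng9 (0.976), Hfe (0.972), Bcl3 (0.965), Slc52a3 (0.965) and Vdr (0.964). None of the other members was among the 5 of Gata1 or of Wt1. Among the 15 pairs of the 6 genes the correlation was highest for Sox8 with Nr5a1 (0.987) and lowest for Gata1 with Gata4 (0.818).

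Of the 5 genes closest to Gata1, Leng9 was called at both 6d and 8d in Amh IP RNA, where 3.41% and 5.63% of all genes were. The 5 were picked by correlation with Gata1 over group means that include 0, 6d and 8d of Amh IP RNA. A course shared with Gata1 is thus partly set by that choice, and the values are only a description. Leng9 differed from 0 by 1.33 ± 0.19 at 6d and 1.37 ± 0.19 at 8d (limma adjusted p = 3.03e-07 and 7.13e-08). Hfe, which encodes a regulator of iron uptake, differed by 0.87 ± 0.19 at 6d, under 2-fold, and by 1.09 ± 0.19 at 8d (limma adjusted p = 0.000577 and 1.16e-05). Vdr, the vitamin D receptor, differed by 0.68 ± 0.16 and 0.65 ± 0.16 and Slc52a3, a riboflavin transporter, by 0.56 ± 0.17 and 0.58 ± 0.17, all under 2-fold. Bcl3, a cofactor of NF-kB, differed by 0.37 ± 0.18 and 0.10 ± 0.18 and did not pass the adjusted p.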

How the data were processed

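The deposited values are intensity on a linear scale, made by the authors with RMA per the submitters' processing notes (its software, settings and how the scale was made linear: not given in the sources used here). The log2 of each deposited value was taken. Per the labels' protocols, RNA was extracted on RNeasy columns, amplified to cDNA and labelled with biotin. Of 28853 probe sets, 23410 were listed with a gene, 1621 of them with several genes, which were left out. Where a gene had several probe sets (999 genes), the brightest by mean stood for it, which left 19938 genes.

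One limma 3.58.1 model (R 4.3.3) gave each of 35 groups (31 of 2 arrays, 1 of 3, 3 of 4) its own mean over 77 arrays, with an intensity trend. Tests were two-sided. Comparisons of fractions are means over the times with both, and whole testis values are means of the Amh and Stra8 lines. The fit was tested on simulated data. Arrays have no read depth, and their number limits the precision. Same-numbered IP and total arrays deviated together (correlation over 0.1) at 7 of 7 times in the Amh line (0.114 to 0.585). They did so at 2 of 2 times in the Ngn3 line (0.249 and 0.259) and at 4 of 8 in the Stra8 line. Numbers may thus pair IP with total RNA in the Amh and Ngn3 lines, as judged from the data and not the labels.

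The 6 genes, the gene lists and the naming rule were chosen with earlier results of these data known. The rule names the 6 genes, the 5 genes most correlated with each over group means (predicted and clone symbols left out) and at most 4 genes of a list per comparison; Rarb and blood lineage markers are named as checks. Lists held other Sertoli transcription factors (18 were analysed here), products and targets, ovarian genes, family relatives and 8 sets of cell markers. Alternatives were no fold minimum, median centring, quantile normalization, the lowest 30% of genes left out, an offset of 16, mean probe sets, a replicate block, only the groups compared, removal of the Amh arrays whose label was 4h or 4d, and removal of each array singly. Chosen after seeing the data were removal of the 3 arrays with the narrowest signal range and of the Stra8 total arrays whose label was 4h. Sequences and coordinates are RefSeq on GRCm38.p6, used for names and positions; 99.6% of the probe sets used were matched by gene number, and promoters were matched for 2 of the 6 genes. Figures were drawn with matplotlib 3.10.9.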

Additional observations from a re-analysis of the deposited data

Results flagged for a closer look

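In Stra8 total RNA at 48h, Sox8 in replicate 1 was at 11.18, below the other arrays at 11.32, 11.32 and 11.33, and Gata1 in replicate 2 was at 10.25, above 9.74, 9.79 and 9.79. Each lay farther from its group than Dixon's limit for 4 arrays allows. Of 18 sets of 4 values tested 2 were past the limit, and chance gives about 1 in 20. The late-minus-early difference of Sox9 (6d and 8d minus 0 to 48h) was 1.06 larger in Amh IP than in Stra8 IP RNA, a difference that was itself past its test (limma adjusted p = 1.80e-06).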

How the results depend on the processing

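No value of the 6 genes changed sign past the threshold under any alternative. Without the 2-fold minimum many more genes pass, so each count of the 6 is given with the share of all genes. The genes called were 6 in Amh IP against Amh total RNA (74.1%), 6 in the late-minus-early difference of Amh IP minus Stra8 IP (40.9%), 2 in that of Amh IP minus total (18.5%) and 3 in that of Stra8 IP minus total (20%). Over the courses they were 2 in Amh IP (53.3%), 6 in Stra8 IP (57.8%), 4 in Amh total (54.4%) and 5 in Stra8 total RNA (65.9%), so that of Amh IP was below the share of all genes. Against 0 they were 1 each at 4h, 12h and 48h (15.3%, 11.9% and 9.11%) and 2 at 4d (9.82%) in Amh IP, and 3, 5 and 3 at 4d, 6d and 8d in Stra8 IP (22.3%, 33.4% and 34.3%). They were 1, 1, 5 and 4 at 12h, 48h, 6d and 8d in whole testis (22.2%, 19%, 36.8% and 43.5%), 4 each at 4h and 4d in Stra8 total (16.6% and 17%) and 1 at 4h in Ngn3 total RNA (1.17%). Median centring gave 3 called in Amh IP against Amh total RNA, 0 in Amh IP minus Stra8 IP, 0 at 8d in Stra8 IP and 1 at 8d in whole testis RNA; quantile normalization gave 1 at the last. An offset of 16 gave 0 at 8d in Stra8 IP. Leaving out single arrays gave counts from 0 to 1 for Amh IP at 4h, for whole testis at 8d and for Amh IP minus Stra8 IP, and from 0 to 2 for Stra8 IP at 6d, at 8d and over its course; a group left with 1 array was assumed to vary like the others. In whole testis RNA at 8d, Gata1 passed 2-fold without Stra8 total 0 replicate 4, Stra8 total 8d replicate 2, Amh total 0 replicate 2 or Amh total 8d replicate 1. With the replicate block, Gata1 in Amh IP against Amh total RNA stayed at 1.25, and the block changed no call of the 6 genes. The remaining alternatives kept every count within 1.5 times its value.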
